A study of Mus musculus with 4 samples.

Results

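The genes examined here encode surface molecules through which B cells exchange costimulatory and inhibitory signals with T cells: Cd80, Cd86, Cd40, Cd83, Icosl, Cd274, Pdcd1lg2, and Cd70. They were chosen by symbol, make up 8 of the 31053 genes in the deposited gene table, and were all found in it. At least 1 mRNA molecule was counted for 7 of the 8 genes, and none for Cd70. The study cultured B cells purified from the spleens of WT mice and profiled them by droplet scRNA-Seq, with 2 samples labelled Bregs-CpG and 2 labelled Bregs-TLR. Bregs-CpG were grown with CpG B ODN 1668, a TLR9 agonist, for 3 days. Bregs-TLR had the same culture and, over its last 5 hours, were also exposed to LPS (a TLR4 agonist), PMA, and ionomycin, so all 4 samples had seen CpG. The counts came in 4 libraries numbered 5 to 8, and no label ties a number to a sample. Therefore, each library was described by itself, no library was assigned to a culture, and no test between Bregs-CpG and Bregs-TLR was made.

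Recognition of antigen alone does not fully activate a naive T cell. CD80 and CD86 on the antigen-presenting cell supply the second signal through CD28 or an inhibitory signal through CTLA-4, ICOSL engages ICOS, and CD70 engages CD27. PD-L1, encoded by Cd274, and PD-L2, encoded by Pdcd1lg2, bind PD-1 and restrain T cells. CD40 on B cells receives the CD40 ligand signal of helper T cells, and CD83 limits the removal of CD86 and MHC class II from the surface by the ubiquitin ligase MARCH1. Resting B cells carry little CD86, which is raised by antigen receptor, TLR, and CD40 signals.

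Cd80 and Cd86 lie on chromosome 16 of GRCm38 (chr16:38455561-38496335, plus strand, and chr16:36603869-36666081, minus strand), and the gap between them spans 1789 kb. Cd274 (chr19:29367455-29388095) and Pdcd1lg2 (chr19:29410919-29471161) lie side by side on the plus strand, 22.8 kb apart. Cd40 is at chr2:165055627-165072948, Cd83 at chr13:43784775-43803132, Icosl at chr10:78069302-78083913, and Cd70 at chr17:57145997-57149777. All are annotated as protein coding. RefSeq promoter windows of GRCm38.p6, from 250 bases before to 50 after the start site, were held for 4 of the 8 genes, which were Cd80, Icosl, Cd274, and Pdcd1lg2. The 250 bases before the start site are shown for a ligand whose level differed between libraries (Icosl), for a ligand whose level differed little (Cd274), and for the neighbor of the latter (Pdcd1lg2), 5′ to 3′ on the plus strand, with a match to the NF-kB motif in capitals.
Icosl, chr10:78069118-78069367: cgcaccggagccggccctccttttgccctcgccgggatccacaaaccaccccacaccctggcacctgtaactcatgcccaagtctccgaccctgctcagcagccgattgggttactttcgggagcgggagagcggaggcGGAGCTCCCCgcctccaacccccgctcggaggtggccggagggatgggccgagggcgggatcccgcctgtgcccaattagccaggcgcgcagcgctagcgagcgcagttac
Cd274, chr19:29367188-29367437: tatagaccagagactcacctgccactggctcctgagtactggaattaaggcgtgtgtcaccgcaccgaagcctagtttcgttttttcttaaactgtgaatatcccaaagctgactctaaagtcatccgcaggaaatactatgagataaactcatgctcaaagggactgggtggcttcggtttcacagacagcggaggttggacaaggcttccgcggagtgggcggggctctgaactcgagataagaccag
Pdcd1lg2, chr19:29410669-29410918: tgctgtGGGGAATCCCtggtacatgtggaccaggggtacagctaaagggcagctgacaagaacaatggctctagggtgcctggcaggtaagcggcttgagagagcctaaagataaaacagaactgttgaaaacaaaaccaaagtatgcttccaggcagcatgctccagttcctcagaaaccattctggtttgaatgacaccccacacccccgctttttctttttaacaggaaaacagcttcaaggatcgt
An NF-kB motif was matched in the Icosl window, starting 111 bases before the start site, and in the Pdcd1lg2 window, starting 244 bases before it, as in 8.46% of all 32851 promoter windows of this length. The AP-1 motif TGANTCA was matched in the Cd80 window, 42 bases before the start site, and in 7.81% of all windows. This window (chr16:38458683-38458982) lies inside the span given above for Cd80, so its start site is not the start of that span. The STAT motif TTCNNNGAA (8.30% of all windows) and the interferon-stimulated response element, searched by its consensus (3.44%), were matched in none of the 4 windows. Both strands were searched, and a match describes letters only. The Icosl window had 26 CpG dinucleotides and a GC content of 68.0%, against 15 and 52.7% for Cd274 and 3 and 46.0% for Pdcd1lg2.

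Libraries 5, 6, 7, and 8 kept 4196, 4714, 5621, and 4003 cells with at least 1000 genes and under 10% mitochondrial counts, 18534 in all, with 44842982, 51636750, 63638158, and 45672518 unique molecular identifiers (UMIs, each standing for 1 captured mRNA molecule). The libraries fell into a pair with medians of 8752 and 8785 UMIs and 7.22% and 7.18% mitochondrial counts per cell (5 and 6) and a pair with 10355 and 10077 UMIs and 4.61% and 4.65% (7 and 8). All 6 B cell markers checked were above 5 UMIs per 1000000 UMIs of the library (CPM) in each library, with a summed level of 13914, 14449, 7388, and 7299 CPM. T cell markers summed to 0.424 to 0.788 CPM with Cd3e, Trbc2, and Cd8a at 0, natural killer cell markers were all at 0, and myeloid markers summed to 3.13 to 4.74 CPM with Lyz2, S100a8, and S100a9 at 0. Dendritic cell markers summed to 4.55, 5.65, 0.739, and 0.679 CPM, of which Flt3 held 4.17, 5.36, 0.189, and 0.241 CPM. Plasma cell markers summed to 1614, 1779, 390, and 339 CPM, most of it Mzb1 in libraries 5 and 6 (1441, 1548, 154, and 157 CPM). Derl3 (20.6, 21.8, 11.5, and 9.83 CPM) was also higher in libraries 5 and 6. Sdc1 (0.201, 0.213, 7.45, and 6.15 CPM) and Xbp1 (84.7, 91.7, 112, and 107 CPM) were higher in libraries 7 and 8. Jchain (36.3, 83.3, 70.9, and 30.1 CPM) and Txndc5 (30.7, 34.5, 33.8, and 29.3 CPM) did not follow the pairs, and Tnfrsf17 had at most 0.136 CPM. Erythroid markers, mainly Hbb-bt, summed to 4.59, 4.30, 219, and 285 CPM with Hba-a1 and Hba-a2 at 0. Among the barcode sequences, 29 occurred in more than 1 library.

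Of the ligands, Cd86 differed most between the libraries. Its level was 3.52 CPM in library 5 (158 UMIs; 95% interval, 3.00 to 4.12), 3.91 in library 6 (202 UMIs; 3.39 to 4.49), 98.0 in library 7 (6236 UMIs; 95.6 to 100.5), and 97.0 in library 8 (4428 UMIs; 94.1 to 99.8). Libraries 7 and 8 were high and libraries 5 and 6 low, with no overlap of the intervals between the pairs. Within each pair, the intervals overlapped, and the ratio was 1.11 between libraries 6 and 5 (0.897 to 1.38) and 1.01 between libraries 7 and 8 (0.972 to 1.05). Library 7 was 27.8-fold above library 5 (23.7 to 32.8), and library 8 was 24.8-fold above library 6 (21.5 to 28.7). These intervals, like all those below, cover counting error only and not the spread between cultures or mice. The 6 B cell markers, Mzb1, Derl3, Flt3, Sdc1, Xbp1, Hbb-bt, and the mitochondrial share moved with the same split of the libraries, not all in the same direction. Their part in the Cd86 levels was not tested. The defining markers of T cells, natural killer cells, and granulocytes were at or near 0 in each library.

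**Figure D1:**
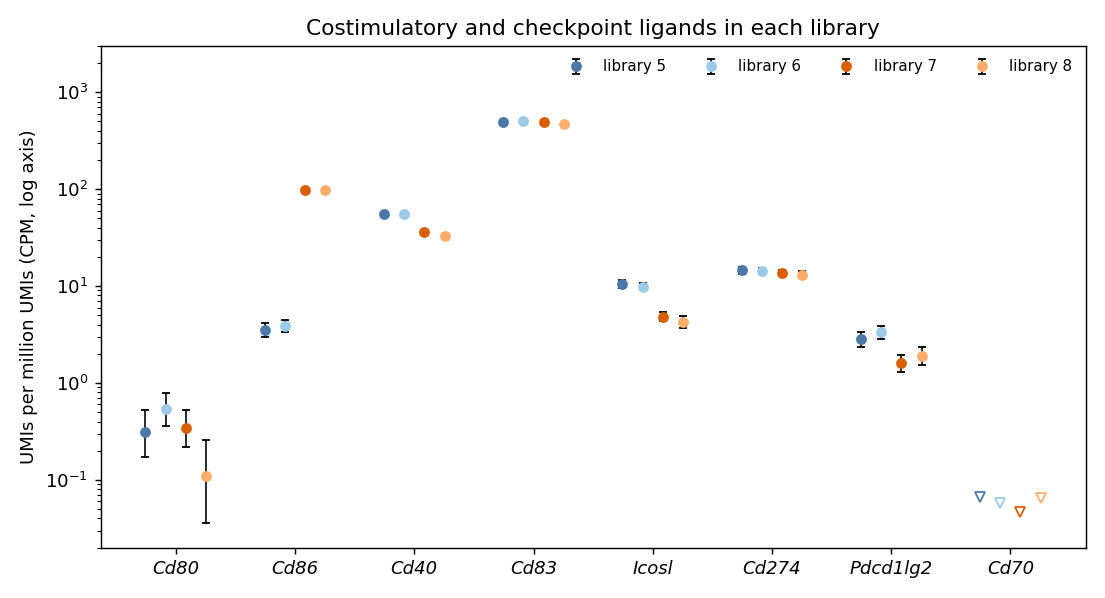
Level of each ligand gene in libraries 5 to 8, as CPM on a log axis. Points are library values, bars are exact Poisson 95% intervals, and open triangles for Cd70 mark the level that a count of 0 allows (3 counts). Cd86 sits near 4 CPM in libraries 5 and 6 and near 97 CPM in libraries 7 and 8, whereas Cd83 and Cd274 lie nearly level.

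Cells with a UMI of Cd86 made up 3.57% of library 5, 4.05% of library 6, 49.8% of library 7, and 49.2% of library 8. Since cells of libraries 7 and 8 were deeper, each cell was also thinned at random to 5000 UMIs, leaving out the 662 shallower cells (158, 114, 233, and 157 per library). The shares were then 1.46%, 1.67%, 32.7%, and 32.2%, so the split between the pairs stood at equal depth. Cells of a type that should lack these genes were not found in numbers, and the share that free RNA gives was not measured.

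More UMIs per cell accompanied the larger share of cells. Among cells with Cd86, the mean count was 1.05 and 1.06 UMIs in libraries 5 and 6 and 2.23 and 2.25 in libraries 7 and 8, and the highest count in a cell was 2, 2, 17, and 12. After thinning, 3 or more UMIs were found in no cell of libraries 5 and 6, in 4.25% of the cells of library 7, and in 3.38% of those of library 8. The thinned counts of libraries 7 and 8 had variances of 1.65 and 1.58 times their means, and 40.1% and 38.1% of the cells would have had a UMI if counts with those means were Poisson distributed. For Cd86 in libraries 5 and 6, the ratio of variance to mean was 0.986 and 1.08. For Cd83, which had higher means, it was 1.51, 1.52, 1.61, and 1.61 in libraries 5 to 8.

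**Figure D2:**
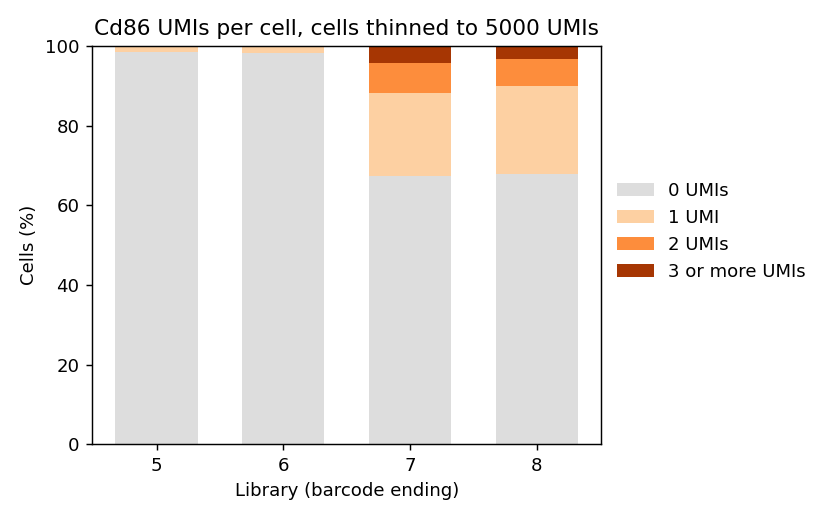
Share of cells (percent, vertical axis) by the number of Cd86 UMIs per cell in each library (horizontal axis), with every cell thinned to 5000 UMIs. Cells with Cd86 are 1.46% and 1.67% of libraries 5 and 6 and 32.7% and 32.2% of libraries 7 and 8, where 11.8% and 10.1% of the cells had 2 or more UMIs.

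Cd80, which encodes the other B7 ligand of CD28 and CTLA-4, was barely captured. Its counts were 14, 28, 22, and 5 UMIs in libraries 5 to 8, or 0.312, 0.542, 0.346, and 0.109 CPM. Library 8 lay below library 6 by the counting intervals (0.0355 to 0.255 against 0.360 to 0.784 CPM), whereas libraries 5 and 7 overlapped with each of the others. Cells with a UMI of Cd80 numbered 13, 26, 17, and 5, under 0.6% of each library. The gene did not reach 5 CPM in any library, the level needed to enter the comparison with all genes.

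The remaining B7 family ligands were Icosl, Cd274, and Pdcd1lg2. Icosl stood at 10.4, 9.84, 4.84, and 4.25 CPM in libraries 5 to 8, from 468, 508, 308, and 194 UMIs. Libraries 5 and 6 were thus the high pair for this ligand, the reverse of Cd86, and the intervals of the pairs (9.51 to 11.4 and 9.0 to 10.7 against 4.31 to 5.41 and 3.67 to 4.89) did not overlap. Library 5 was 2.16-fold above library 7 (1.86 to 2.50), and its ratio to library 6 was 1.06 (0.934 to 1.21). Thinned cells gave shares of 4.41%, 4.87%, 2.54%, and 1.95%.

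Cd274 was nearly level. Its level was 14.5, 14.3, 13.7, and 13.1 CPM in libraries 5 to 8 (649, 740, 875, and 600 UMIs), with overlapping intervals throughout (13.4 to 15.6 in library 5 and 12.1 to 14.2 in library 8). The evenness depended on the totals used. Without mitochondrial, ribosomal protein, and immunoglobulin genes in them, the values for Cd274 were 27.3, 26.6, 22.7, and 22.3. Libraries 5 and 6 then lay further above libraries 7 and 8. A UMI was found in 13.0%, 13.6%, 12.5%, and 12.2% of the cells, or 6.96%, 7.20%, 6.85%, and 5.72% after thinning. Among the genes compared, 94.9% had a larger ratio of the highest to the lowest library than the 1.10 of Cd274. Its neighbor Pdcd1lg2 had 126, 173, 102, and 87 UMIs, or 2.81, 3.35, 1.60, and 1.90 CPM. Libraries 5 and 6 were higher than library 7 by their intervals (2.34 to 3.35 and 2.87 to 3.89 against 1.31 to 1.95), and library 8 (1.53 to 2.35) overlapped slightly with library 5.

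Because these genes differ in level, the makeup of the B7 family message differed between the library pairs. The 5 B7 family ligands together held 31.6, 32.0, 118.5, and 116 CPM. Cd86 made up 11.2% of these UMIs in library 5 (95% interval, 9.57% to 12.9%), 12.2% in library 6, 82.7% in library 7, and 83.3% in library 8 (82.3% to 84.3%). Cd274 was the most abundant B7 message of libraries 5 and 6, with 45.9% and 44.8%, followed by Icosl with 33.1% and 30.8%, and it came second in libraries 7 and 8 with 11.6% and 11.3%. UMI counts of this 3′ assay count molecules and were not divided by gene length.

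**Figure D3:**
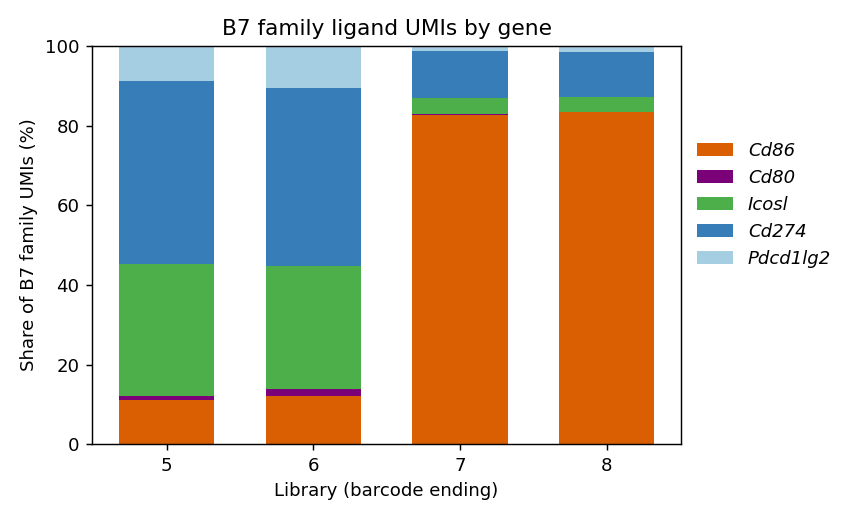
Share of the UMIs of the 5 B7 family ligand genes held by each gene (percent, vertical axis) in each library (horizontal axis). Cd274 and Icosl hold most of the UMIs in libraries 5 and 6, and Cd86 holds 82.7% and 83.3% in libraries 7 and 8.

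Of the molecules outside the B7 family, Cd83 was the most abundant and among the most even. It had 497, 504, 490.2, and 466 CPM in libraries 5 to 8, and a UMI in 94.0%, 94.4%, 95.4%, and 94.7% of the cells. Library 8 was the lowest (460.2 to 473 CPM), apart from the other 3 by its interval, although library 6 was just 1.08-fold above it (1.06 to 1.10). A larger ratio was found for 97.0% of the genes compared. Per thinned cell, the mean was 2.55, 2.59, 2.52, and 2.42 UMIs. Without mitochondrial, ribosomal protein, and immunoglobulin genes in the totals, the ratio for Cd83 became 1.18, with library 5 highest.

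Cd40 followed the direction of Icosl. Its level was 54.9 CPM in library 5 (52.8 to 57.1), 55.2 in library 6 (53.2 to 57.3), 36.3 in library 7 (34.8 to 37.8), and 32.9 in library 8 (31.3 to 34.6). The low pair lay apart from the high pair, libraries 7 and 8 differed slightly beyond their intervals, and libraries 5 and 6 could not be told apart. Library 6 was 1.68-fold above library 8 (1.58 to 1.79). Shares of cells were 37.8%, 39.1%, 27.7%, and 25.7%, and after thinning 23.3%, 22.5%, 14.9%, and 14.4%.

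Cd70, the TNF family ligand of CD27, had 0 UMIs in each library. A count of 0 allows up to 0.0715%, 0.0636%, 0.0534%, and 0.0749% of cells with a UMI in libraries 5 to 8, and 0.0669, 0.0581, 0.0471, and 0.0657 CPM. At this depth, Cd70 mRNA was not detectable in either pair of libraries.

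Set against all genes, 5 of the 8 ligands could be compared, having reached 5 CPM in at least 1 library as 8691 genes did. Cd86 and Icosl, 2 of these 5, were at least 2-fold apart between libraries 5 and 7, where 28.7% of all genes compared were. The same 2 genes were at least 2-fold apart between libraries 5 and 8 (27.8% of all genes), 6 and 7 (28.5%), and 6 and 8 (27.5%). None of the 5 was so far apart between libraries 5 and 6 (0.115% of all genes) or 7 and 8 (0.207%). For the highest over the lowest library, the count was again 2 of 5 against 31.7% of all genes, and the median ratio was 1.68 for the 5 ligands and 1.60 for all genes. The number of ligands past 2-fold was thus near the background. A larger ratio than that of Cd86 was found for 78 of the 8691 genes (0.897%). Cd86 reached 5 CPM only in libraries 7 and 8, and Icosl only in libraries 5 and 6, where each was high. The same holds for Vsir, Ctla4, Cd27, Cd200, and Slamf1 below. The filter can thus admit a gene through its difference, so these counts and this rank are description only. The median gene was 0.22 higher in library 7 than in library 5 on the log2 scale (pseudocount, 0.1 CPM), and 0.02 higher with mitochondrial, ribosomal protein, and immunoglobulin genes left out of the totals. On the same log2 scale, Cd86 was 4.80 higher, Icosl 1.11 lower, Cd40 0.60 lower, and Cd83 0.02 lower in library 7 than in library 5.

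Most cells carried 1 or 2 of these messages. After thinning, none of the 8 genes was detected in 9.41%, 9.59%, 7.67%, and 8.87% of the cells of libraries 5 to 8. Exactly 1 was detected in 60.3%, 59.8%, 49.4%, and 49.8%, which for most was Cd83, and 2 were detected in 26.9%, 27.0%, 35.3%, and 35.1%. Cells with Cd86 and without either PD-1 ligand message were 1.34%, 1.52%, 30.0%, and 30.1% of the libraries. Cells with Cd86 and at least 1 of Cd274 and Pdcd1lg2 were 0.124%, 0.152%, 2.65%, and 2.11%, and cells with a PD-1 ligand message and no Cd86 were 8.05%, 8.30%, 4.73%, and 4.24%. Cells with both Cd86 and Cd274 were 2.54% of library 7 and 1.95% of library 8. The product of the shares of these 2 genes was close to that, at 2.24% and 1.84%. The groups are thus not shown to be separate classes of cells. Cd274 and Pdcd1lg2 were found together in 4, 7, 4, and 5 cells of libraries 5 to 8, which is too few to describe how they share cells.

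To see whether Cd86 marked cells rich in the other ligands, thinned cells with and without a Cd86 UMI were compared within each library, 59, 77, 1760, and 1238 cells with Cd86 in libraries 5 to 8. Cd40, Cd83, and Cd274 reached the required 5% of cells in each library. None of the 3 was detected at least 25% more often in cells with Cd86 in every library, and neither was any of the 5456 genes compared (0.0%). The rule had to hold in each library, including those with just 59 and 77 cells with Cd86. Thinning also moved cells with Cd86 into the group without it. A UMI was found in 49.8% of library 7 before thinning and 32.7% after, and in 49.2% and 32.2% of library 8. The ratios can thus understate a difference, and the lack of such genes does not show that Cd86 marks no cells rich in other ligands. Cd83 had nearly equal shares in cells with and without Cd86, 85.3% and 85.9% in library 7 and 84.2% and 84.1% in library 8.

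Cd274 was found in 7.78% of the cells with Cd86 in library 7 (95% interval, 6.58% to 9.14%) and in 6.39% of those without (5.62% to 7.24%). In library 8, the shares were 6.06% and 5.56%, and in each library the intervals overlapped. Cd40 was found in 13.5% of the cells with Cd86 and 15.6% of those without in library 7 and in 12.6% and 15.3% in library 8. In libraries 5 and 6, the ratio of the Cd40 shares was 1.24 and 0.631, from 17 and 11 cells with both genes. When at least 2 UMIs of Cd86 were required, the ratio for Cd40 moved from 0.862 to 0.734 in library 7 and from 0.824 to 0.706 in library 8, and that for Cd274 in library 7 from 1.22 to 1.45. Icosl was found in 1.93% of the cells with and 2.84% of the cells without Cd86 in library 7 and in 2.10% and 1.88% in library 8.

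**Figure D4:**
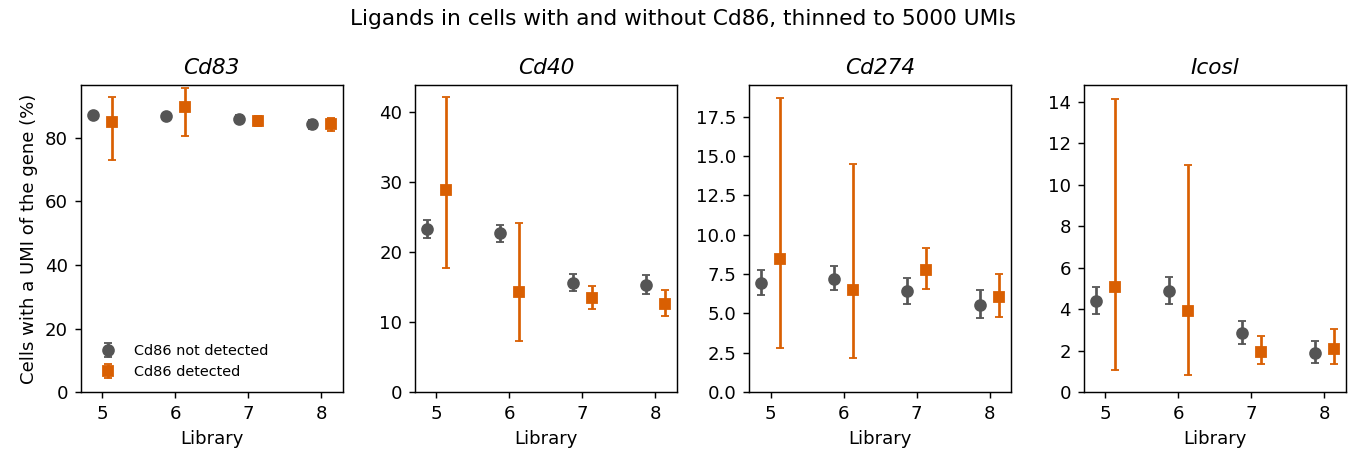
Share of cells with a UMI of Cd83, Cd40, Cd274, or Icosl (percent, vertical axes that start at 0 and differ in scale) among cells with and without a UMI of Cd86 in each library, with every cell thinned to 5000 UMIs. Bars are exact binomial 95% intervals, which overlap between the groups in each panel and library and are wide in libraries 5 and 6, where 59 and 77 cells had Cd86.

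The 5 genes most like Cd86, by the lowest of the 4 ratios of shares, were Acsl1 (1.20), Crem (1.16), Egr1 (1.14), Csf2ra (1.14), and Arap2 (1.14). Crem and Egr1 encode transcription factors that are rapidly induced by signals from the cell surface. The genes most like Cd274 were Fam46c (1.31), Cdc14a (1.27), Ccdc66 (1.26), Dtx3l (1.22), and Lonp2 (1.21). These ratios describe weak differences in sparse counts.

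Cells were also divided by Il10, the cytokine gene most often used to define regulatory B cells. Cd86 stood at 103 CPM in cells with Il10 and 91.4 CPM in cells without it in library 7, and at 103 and 88.4 CPM in library 8. The shares of thinned cells with Cd86 were closer, at 33.6% and 31.5% in library 7 and 32.8% and 31.3% in library 8. Cd83 was 502 and 471 CPM in cells with and without Il10 in library 7 and 482 and 440.5 CPM in library 8. In library 5, it was 611 and 491 CPM, and in library 6, 586 and 500 CPM. These CPM intervals lay apart in each library, and after thinning the intervals of the Cd83 shares overlapped in libraries 5, 6, and 8. Cd40 was 76.3 and 53.8 CPM in library 5, and its intervals overlapped in libraries 6, 7, and 8. Cells with Il10 numbered just 175 and 166 in libraries 5 and 6, and held 7 and 14 UMIs of Cd86.

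Cells with at least 2 of 8 mitotic genes, such as Mki67 and Top2a, were set against the others. Cd83 and Cd40 had lower CPM in the mitotic cells of each library, with intervals apart. Cd83 was 384, 366, 399, and 360.5 CPM in these cells of libraries 5 to 8, against 514, 527, 499, and 478 CPM in the others. For Cd40, the values were 44.1, 47.8, 23.1, and 20.3 CPM against 56.6, 56.6, 37.9, and 34.5 CPM. Cd86 was 59.7 against 102 CPM in library 7 and 76.2 against 99.7 CPM in library 8, and the thinned shares were 22.4% against 33.5% and, with overlapping intervals, 29.6% against 32.4%. Mitotic cells had medians of 15143 to 17378 UMIs against 8609 to 10321 in the others. Counted per cell without thinning, Cd83 was higher in the mitotic cells of each library. In library 5, it had 2175 UMIs in 292 mitotic cells against 19762 in 3746 others. Cd40 per cell was higher in mitotic cells of libraries 5 and 6 and lower in those of libraries 7 and 8. Pdcd1lg2 was 4.41, 4.28, 3.21, and 2.85 CPM in mitotic cells, from 15 to 32 UMIs, against 2.63, 3.18, 1.44, and 1.81 CPM in the others, and the intervals lay apart in library 7 alone. Icosl was 14.3, 9.37, 6.89, and 6.65 CPM against 9.82, 9.94, 4.59, and 3.82 CPM, higher in mitotic cells of libraries 5, 7, and 8, with intervals apart in libraries 5 and 8. Cd274 was 10.1, 11.8, 12.9, and 9.88 CPM against 15.1, 14.8, 13.9, and 13.5 CPM, with intervals apart in library 5 alone. After thinning, intervals of the shares overlapped for Icosl in libraries 5 and 8, Pdcd1lg2 in library 7, and Cd274 in library 5. For Icosl, the shares were 5.48% against 4.32% in library 5 and 2.23% against 1.93% in library 8. Those of Cd40 overlapped in library 6 (20.6% against 22.7%), whereas Cd40 in the other libraries and Cd83 in each stayed apart. Cells with 20 or more UMIs of Jchain, a plasma cell gene, numbered under 50 in each library and were not described.

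The genes around these ligands were counted from lists of their receptors, relatives, and regulators. Of 8 other genes listed as B7, butyrophilin-like, or related molecules, some of which encode receptors, 2 reached 5 CPM. These were Vsir and the receptor gene Btla. Between the highest and the lowest library, 1 of them was at least 2-fold apart, beside 31.7% of all genes compared. The 1 gene was Vsir, which encodes the inhibitory ligand VISTA, with 12.5, 13.3, 3.17, and 2.76 CPM in libraries 5 to 8. None of 9 TNF superfamily ligands reached 5 CPM. Of the 6 binding partners listed, Ctla4 and Cd27 did, and they differed in opposite directions. Ctla4, the inhibitory receptor of CD80 and CD86, had 3.77, 3.99, 18.8, and 21.0 CPM, high in the same libraries as Cd86. Cd27 had 5.33, 5.07, 2.03, and 1.97 CPM. Cd40lg was at 0 in each library.

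Among 14 adhesion molecules and other ligands of lymphocyte receptors found in the gene table, 11 reached 5 CPM and 7 were at least 2-fold apart, of which 3 were highest in library 5 or 6 and 4 in library 7 or 8 (31.7% of all genes compared were at least 2-fold apart in either direction). Cd200, whose product restrains myeloid cells, had 2.74, 2.94, 25.3, and 21.5 CPM. Havcr1, which encodes TIM-1, had 6.31, 5.64, 47.2, and 40.5 CPM. Slamf1 was the reverse, with 8.85, 10.1, 2.95, and 3.13 CPM, and Pvr was 2.77-fold higher in library 7 than in library 5.

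All 11 genes of the CD40 adaptors and NF-kB feedback list reached 5 CPM, and 5 were at least 2-fold apart, 4 of them highest in library 7, against the same 31.7% of all genes. Traf1, an adaptor induced by NF-kB, had 51.1, 49.2, 147, and 144 CPM, and Tnfaip3, which encodes the feedback inhibitor A20, had 15.0, 14.0, 40.2, and 35.0 CPM. The NF-kB subunit gene Rel had 98.0, 97.4, 217, and 213 CPM. Traf5 was lower in libraries 7 and 8, with 40.4, 45.8, 20.2, and 17.7 CPM.

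Of 5 genes for surface turnover found in the table, 2 reached 5 CPM. March1, whose product removes CD86 from the surface, had 46.9, 51.3, 12.7, and 11.8 CPM in libraries 5 to 8, so it was low where Cd86 was high. Within library 7, March1 was found in 7.39% of the cells with Cd86 (6.21% to 8.71%) and 5.35% of those without (4.64% to 6.13%), and in library 8 in 5.65% and 5.29%, with overlapping intervals. Cmtm6, whose product stabilizes PD-L1, had a ratio of 1.29. Of 6 interferon and STAT factors known to act at Cd274, all reached 5 CPM and 4 were at least 2-fold apart, 2 in each direction, again beside 31.7% of all genes. Jak1 was 4.36-fold higher in library 7 than in library 5 and Jak2 was 3.07-fold higher, whereas Irf1 was 2.92-fold higher in library 6 than in library 7 and Irf9 was 2.54-fold higher in library 6 than in library 8. By CPM, Cd274 itself had a ratio of 1.10 between the highest and the lowest library.

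**Figure D5:**
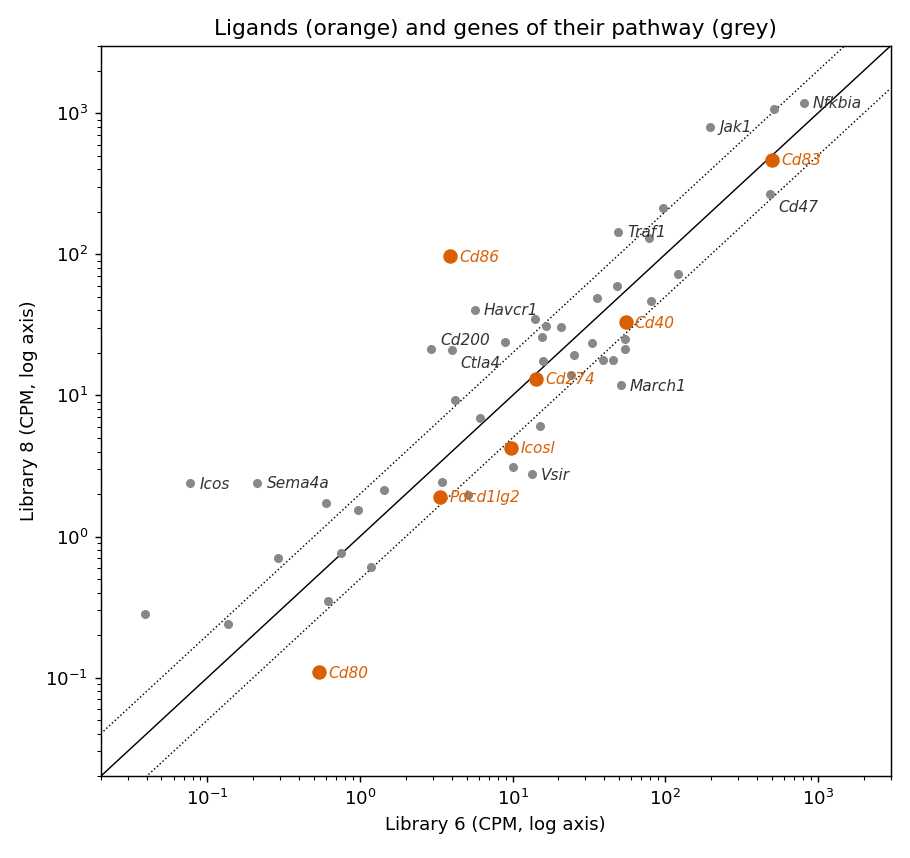
Level of each ligand gene (orange) and each listed pathway gene (grey) in library 6 (horizontal axis) and library 8 (vertical axis), as CPM on log axes, for genes with a UMI in each. The solid line marks equal levels and the dotted lines a 2-fold difference. Cd86 is the ligand above the line, with 3.91 and 97.0 CPM, and March1 and Vsir lie below it.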

How the data were processed

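Splenic B cells were profiled in droplets with the 3′ v3 chemistry of 10x Genomics. Per the submitters' processing notes and the study's methods, the authors used bcl2fastq and Cell Ranger (version 3.1.0) with mm10, counted UMIs per gene and cell, and evened the depth of the libraries when combining them. The deposited values are whole-number counts after this evening of depth, with no further scaling and no imputation.

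The matrix has 35989 columns, of which 19920 have a barcode in the list, and a number from 5 to 8 at the end of each barcode names its library. The list was assigned in order to the last 19920 columns, and the other 16069 columns were not used. Among the columns used, the shift in mean expression at the start of library 7 was the largest of all positions (percentile 100), and Cd86 went there from 5.27 to 107 CPM in windows of 400 cells. At the starts of libraries 6 and 8, the shift was at percentiles 89.5 and 96.4, so those borders are less sure. Cells with under 1000 genes (559) or at least 10% mitochondrial counts (1110) were removed. No doublets were removed. The endings carry no sample name, so each library is a single value without a replicate check.

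CPM is the UMIs of a gene per 1000000 UMIs of the kept cells of a library. For CPM, 95% intervals were computed by the exact Poisson method, for ratios by the exact conditional method, and for shares by that of Clopper and Pearson (Python version 3.11.15, SciPy version 1.17.1). Thinning drew 5000 UMIs per cell without replacement with a fixed seed. A gene was compared from 5 CPM in at least 1 library, and co-detection from 5% of thinned cells in each. The 2-fold limit, the intervals of ratios, and thinning followed by a co-detection ratio were tested on simulated data. There, the gene that stood for Cd86 was far more frequent than Cd86 was in libraries 5 and 6. The rule that a co-detection ratio must hold in each library was not simulated. The 8 genes, the lists around them, and the rules were chosen with earlier results of these data known. Named were all 8 genes, up to 4 genes per list with the largest ratios, and the 5 genes most like Cd86 and Cd274 in the cells they were found in. Icosl, Cd274, and Pdcd1lg2 were chosen for their promoters after their values were seen, as were Nfkbia, Cd47, Icos, and Sema4a as labels in the plot of libraries 6 and 8. Cmtm6 and Cd40lg complete their lists. Positions are from GENCODE vM21 on GRCm38, which may differ from the annotation used for counting. TMM (edgeR version 4.0.16) and median-of-ratios size factors (DESeq2 version 1.42.0) served as alternative scalings only, and no differential test was run.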

Additional observations from a re-analysis of the deposited data

How the results depend on the processing

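Between the highest and the lowest library, Cd86 differed 24.8- to 28.6-fold and Icosl 2.16- to 2.72-fold under all alternatives, with Cd86 higher in libraries 7 and 8 and Icosl in 5 and 6. Cd40 ranged from 1.52 to 1.85, Cd83 from 1.03 to 1.18, and Cd274 from 1.05 to 1.22. Of the alternative ratios of single ligands, 70 moved by less than counting error and 7 by more. The 70 include ratios that could not move, since leaving out a library that is neither highest nor lowest does not change the ratio. Of the alternative co-detection ratios of ligands with Cd86, 75 moved by less than counting error and 15 by more. The order of libraries 5 and 7 turned for Cd83 with the mean over cells (508 and 511 CPM in place of 497 and 490.2) and for Cd80 with that mean or with fewer genes in the totals. Cd80 depended on library 8, without which its ratio was 1.74 in place of 4.95. With all genes that had a UMI, 4 of 7 ligands were 2-fold apart between the highest and the lowest library and 1 between libraries 7 and 8, and the counts of genes were 2846 (libraries 5 and 6), 7619 (5 and 7), 7400 (5 and 8), 7513 (6 and 7), 7357 (6 and 8), 3086 (7 and 8), and 10088 (highest over lowest). From 20 CPM, 1 of 3 ligands was 2-fold apart in each of the 4 pairs of a high and a low library and for the highest over the lowest, and the counts of genes in the same order were 4, 1587, 1523, 1575, 1498, 6, and 1711. At 1.5-fold, they were 22, 4522, 4349, 4451, 4294, 73, and 4928. The limits on level changed how many genes were compared. The ligand counts past 2-fold under the alternatives have no share of all genes beside them and were not weighed against the background. With fewer genes in the totals, 45 genes differed between libraries 7 and 8. Without the 5% of cells with the most UMIs, 1 ligand differed between libraries 6 and 7, and 1 gene was found more often with Cd86 in every library. Without thinning, when cells with Cd86 were also deeper (medians of 10903 against 9781 UMIs in library 7), this held for 1 of 3 ligands and 194 of 7430 genes. Leaving out 1 library gave 1 to 4 such genes. In libraries 7 and 8 alone, an alternative chosen after seeing the data, there were 18, and 56 with at least 2 UMIs of Cd86 required. With that requirement, all 4 libraries could not be compared, since 0 and 4 thinned cells remained in libraries 5 and 6. Apart from what the filters do by construction, the causes were not tested. No paired analysis was possible because the barcodes carry no replicate number. Depth limits Cd80, Cd70, Pdcd1lg2, and co-detection in libraries 5 and 6.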

Other observations

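Libraries 7 and 8 held enough cells with Cd86 to describe which other messages these cells carried, and the genes named here were chosen after their values were seen. Of 6223 genes found in at least 5% of the thinned cells of both, 18 were at least 25% more frequent in cells with Cd86 in each library. Eaf2, which encodes a transcription elongation factor partner, was found in 20.3% of the cells with and 12.2% of the cells without Cd86 in library 7, and in 18.8% and 10.2% in library 8. Cd200 was found in 11.9% and 7.72% of these cells in library 7 and in 12.1% and 7.13% in library 8. The cytokine gene Il33 was found in 17.5% and 11.6% in library 7 and in 16.2% and 10.0% in library 8, and Il1rn, which encodes the IL-1 receptor antagonist, in 12.4% and 8.74% and in 11.2% and 8.28%. Egr2 and Arap2 also stood at the upper end, with ratios of 1.34 and 1.34 in library 7 and 1.48 and 1.35 in library 8, as did Hs3st1 and Adgrl2.

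The 8 genes lowest in cells with Cd86, by the larger of both ratios, were Iglc3, Lynx1, Hdac7, Cnp, Cd72, Ripor2, Iglc1, and Ly6d. Ly6d was found in 30.1% of the cells with and 42.8% of the cells without Cd86 in library 7, and in 31.8% and 43.6% in library 8. Cd72, which encodes an inhibitory coreceptor, was found in 7.67% and 10.7% in library 7 and in 8.40% and 11.9% in library 8. Hdac7 had ratios of 0.707 and 0.669 in libraries 7 and 8, Cnp of 0.710 and 0.621, Lynx1 of 0.642 and 0.706, and Ripor2 of 0.722 and 0.710. The light chain genes Iglc1 and Iglc3 had ratios of 0.602 and 0.452 in library 7 and 0.723 and 0.626 in library 8, and counts of such similar genes can be shared between copies. Il10, by contrast, was found in 58.2% of the cells with and 55.8% of the cells without Cd86 in library 7 and in 58.8% and 57.1% in library 8. Ctla4 was found in 6.42% and 6.62% in library 7 and in 6.22% and 6.94% in library 8.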
